A study of Mus with 17 samples.

Results

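Transcripts of 6 antioxidant genes were followed in the abdominal aorta of mice: Nfe2l2, Hmox1, Nqo1, Sod1, Sod2 and Cat. Each gene was represented by 1 Ensembl transcript, given by its identifier, so 6 of the 39614 transcripts listed for all samples were members. The members were chosen with earlier results of these data known. They were ENSMUST00000102672 (Nfe2l2), ENSMUST00000005548 (Hmox1), ENSMUST00000003947 (Nqo1), ENSMUST00000023707 (Sod1), ENSMUST00000007012 (Sod2) and ENSMUST00000028610 (Cat). The deposited tables give identifiers without gene names, so these pairings were taken as given, and other transcripts of the same genes were not analysed here. All mice were wild-type C57BL/6, an inbred laboratory strain, and each group was treated for 42 days. The Control group (n = 5) received saline and double distilled water. The AngII group (n = 6) received angiotensin II, a vasoconstrictor peptide that raises blood pressure, at 500 ng/kg/min, and double distilled water. The third group (n = 6) received the same infusion and neferine, an alkaloid of lotus seeds, at 1 mg/kg/day. The ages and the number of animals behind a sample were not stated, and nothing says whether samples were separate animals. The p-values therefore measure the spread between these samples, which may be technical.

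Nfe2l2 encodes Nrf2, a transcription factor that is held in the cytoplasm and degraded through its partner Keap1 until oxidants or electrophiles release it. Freed Nrf2 enters the nucleus and switches on genes that carry antioxidant response elements, among them Hmox1 and Nqo1, so its activity is controlled largely at the level of the protein and not of its transcript. Superoxide dismutases turn superoxide into hydrogen peroxide, and catalase breaks that down. In the vessel wall angiotensin II is known to stimulate NADPH oxidases, which make superoxide, and these enzymes are therefore often measured in models of hypertension.

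Values are abundance signals, linear numbers per transcript whose unit the files do not name. They were compared within a transcript and not between transcripts, because it is not stated whether they are per length. Read depth is unknown. The total signal over the shared transcripts lay between 388538 and 567508 per library. A group of 3 libraries stood apart. Their totals were 520776 (AngII replicate 2), 541055 (AngII replicate 6) and 567508 (neferine replicate 1), and no other library exceeded 444752. AngII replicate 6 had 16.4% of transcripts listed at 0, and its Spearman rho with each other library, computed across transcripts, had a median of 0.455. In AngII replicate 2 and neferine replicate 1 the 10 highest transcripts took 31.0% and 29.0% of the signal. In the other 14 libraries 4.39% to 10.05% of transcripts were at 0, the median rho was 0.638 to 0.680, and the 10 highest took 10.6% to 21.8%. Markers of the tissue and of other cell types were not analysed here, since the tables do not pair identifiers with names. In whole tissue, fewer cells of a type and less RNA per cell cannot be told apart.

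No member passed the test in any comparison. Differences were tested with limma on log2(signal + 1) over 29983 transcripts, with calls made where the Benjamini-Hochberg adjusted p was under 0.05. All 6 members had a signal above 0 in every library, with 0 of 102 values listed at 0, and all 6 passed the filter on low values. Of all transcripts tested, 0.0% were called between AngII and Control, 0.0% between neferine and AngII, and 0.0367% between neferine and Control, against 0 of 6 members each time. At an unadjusted limma p under 0.05 there were 0, 2 and 1 members in the 3 comparisons. The exact permutation and rank sum tests, adjusted over all transcripts, called 0 of 29983 in each comparison. Their smallest possible p of 0.00216 or 0.00433 leaves them little room, so this lack of calls says nothing more about the members. The member with the widest separation was Hmox1, whose libraries did not overlap between neferine and Control. Across all transcripts the groups were free of overlap in 0.807% between AngII and Control and 0.263% between neferine and AngII, with 0 of 6 members in each, and in 2.08% between neferine and Control, with 1 of 6. The plot of signals by group shows every library.

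**Figure D1:**
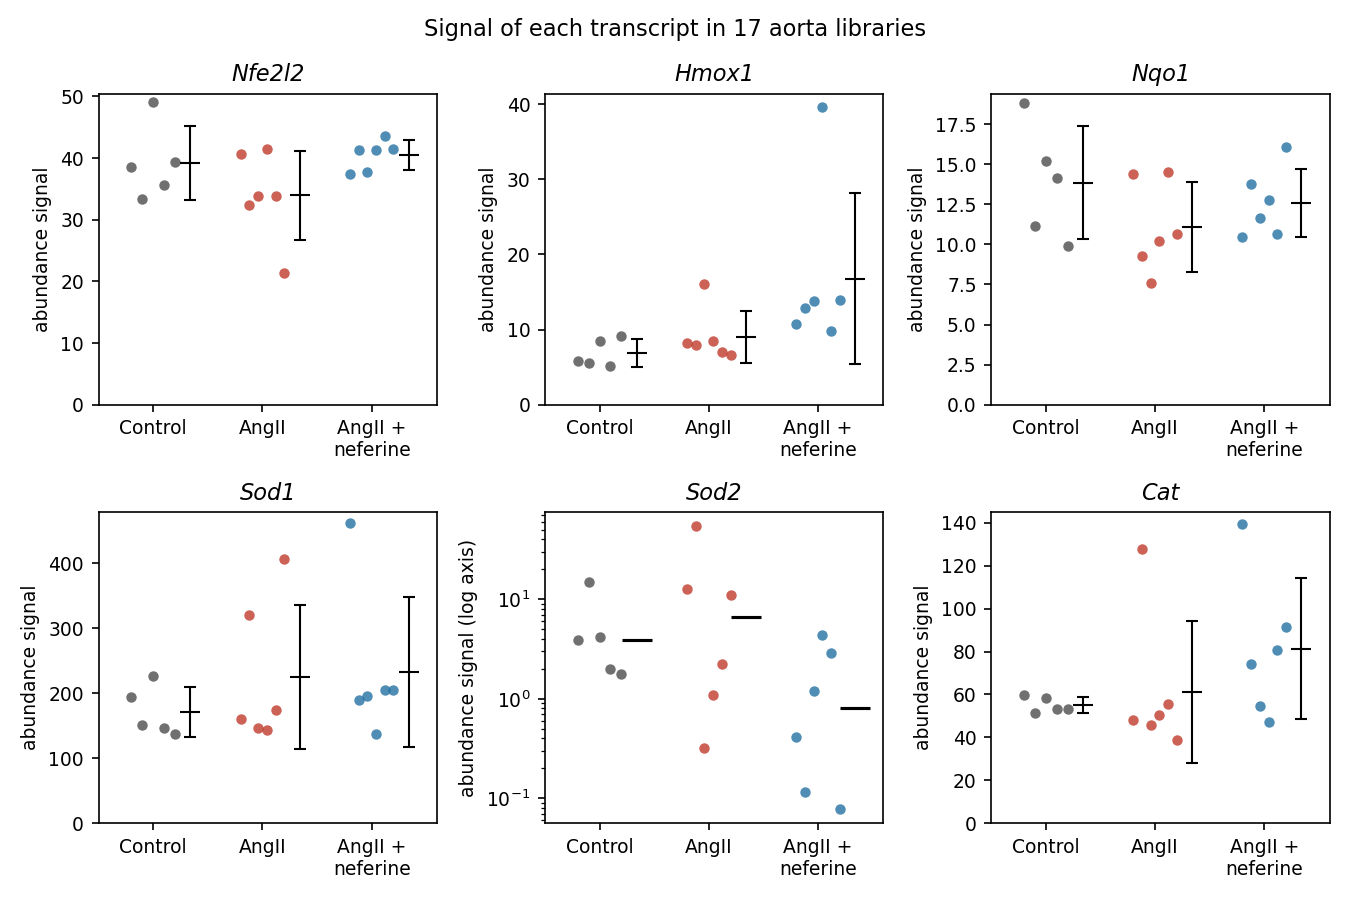
Abundance signal of the 6 transcripts (vertical axes, no stated unit) in 5 Control, 6 AngII and 6 AngII + neferine libraries. Each point is a library, ordered by replicate number within a group. Bars give the mean ± SD, except for Sod2, which has a log axis and a line at the group median. All 6 neferine libraries lay above all 5 Control libraries for Hmox1.

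The Nfe2l2 signal was steady across libraries. In Control it was 38.5, 33.4, 49.1, 35.6 and 39.3 in replicates 1, 2, 4, 5 and 6. In AngII it ran from 21.4 through a median of 33.8 to 41.5, and with neferine from 37.5 through 41.3 to 43.6. The 3 groups overlapped, and the lowest of the 17 values belonged to AngII replicate 6, the library with the most transcripts at 0. The Control mean was 39.2 ± 6.01 (SD, n = 5), the AngII mean 33.95 ± 7.24 (SD, n = 6) and the neferine mean 40.5 ± 2.38 (SD, n = 6). AngII was lower than Control by a log2 difference of -0.22 ± 0.16 (SE), which did not pass (limma, adjusted p = 0.784). Neferine against AngII gave 0.27 ± 0.15 (SE; limma, adjusted p = 0.952), and neferine against Control gave 0.06 ± 0.16 (SE; limma, adjusted p = 0.951). For neferine against AngII an exact permutation test gave an unadjusted p of 0.0368 and an adjusted p of 0.953. The 95% intervals of the 3 differences ran from -0.56 to 0.12, from -0.05 to 0.60 and from -0.29 to 0.40. Without AngII replicate 6 alone, the difference of AngII from Control was -0.10 and that of neferine from AngII 0.15. Without the 3 libraries that stood apart they were -0.06 and 0.14, and without Control replicate 4 the first was -0.14.

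Hmox1 encodes heme oxygenase 1, the inducible enzyme that breaks down heme and a standard readout of Nrf2 activity. In Control its signal was 5.87, 5.60, 8.53, 5.14 and 9.14 in replicates 1, 2, 4, 5 and 6. In AngII it ran from 6.62 through a median of 8.06 to 16.0, and with neferine from 9.85 through 13.3 to 39.7. The neferine libraries were all above the highest Control library, whereas AngII overlapped both other groups. The highest values were those of neferine replicate 4, at 39.7, and of AngII replicate 3, at 16.0.

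The Hmox1 mean of Control was 6.86 ± 1.84 (SD, n = 5), that of AngII 9.03 ± 3.5 (SD, n = 6) and that of neferine 16.8 ± 11.3 (SD, n = 6). The neferine mean was 2.45 times that of Control and 1.86 times that of AngII. Between neferine and Control the log2 difference was 1.04 ± 0.31 (SE), with a 95% interval from 0.39 to 1.69, and it did not pass over all transcripts (limma, adjusted p = 0.273). A two-sided exact permutation test on the log2 values gave an unadjusted p of 0.00433, where 0.00216 is the smallest possible, and an adjusted p of 0.23 over all transcripts. Hmox1 was 1 of 625 transcripts without overlap in this comparison. Scaling each library to an equal total made these groups overlap, with 4 of 6 neferine libraries above the highest Control library, while scaling by the median of ratios left them apart.

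Between neferine and AngII, Hmox1 differed by 0.72 ± 0.29 (SE) on the log2 scale, with a 95% interval from 0.09 to 1.34 (limma, adjusted p = 0.938). An exact permutation test gave an unadjusted p of 0.0303 and an adjusted p of 0.953. The size of the Hmox1 difference depended on neferine replicate 4, without which the log2 difference was 0.44 against AngII and 0.77 against Control. Between AngII and Control it was 0.33 ± 0.31 (SE; limma, adjusted p = 0.821), and 0.16 without AngII replicate 3. The neferine files list a different set of transcripts from the Control and AngII files. Wherever neferine is compared, the drug and the set of files therefore cannot be told apart. Against Control the angiotensin II infusion differs as well, and it cannot be told apart from them there.

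Nqo1 encodes a quinone reductase and is, like Hmox1, a classical Nrf2 target. Its Control values were 18.8, 11.2, 15.2, 14.1 and 9.91 in replicates 1, 2, 4, 5 and 6. In AngII they ran from 7.56 through a median of 10.4 to 14.5, and with neferine from 10.5 through 12.2 to 16.1. The groups overlapped throughout, and all neferine values lay inside the Control range. Means were 13.9 ± 3.52 (SD, n = 5), 11.1 ± 2.80 (SD, n = 6) and 12.6 ± 2.13 (SD, n = 6) in Control, AngII and with neferine. The log2 difference was -0.30 ± 0.20 (SE) between AngII and Control (limma, adjusted p = 0.772), 0.18 ± 0.19 between neferine and AngII (limma, adjusted p = 0.957) and -0.11 ± 0.20 between neferine and Control (limma, adjusted p = 0.91). Their 95% intervals ran from -0.72 to 0.13, from -0.22 to 0.59 and from -0.54 to 0.31. Single libraries moved these values. AngII against Control was -0.18 without Control replicate 1, and neferine against AngII was 0.09 without AngII replicate 3 and 0.11 without neferine replicate 6. The interval of Nqo1 between neferine and Control ends at 0.31 and that of Hmox1 begins at 0.39, though a difference between the 2 transcripts was not tested.

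**Figure D2:**
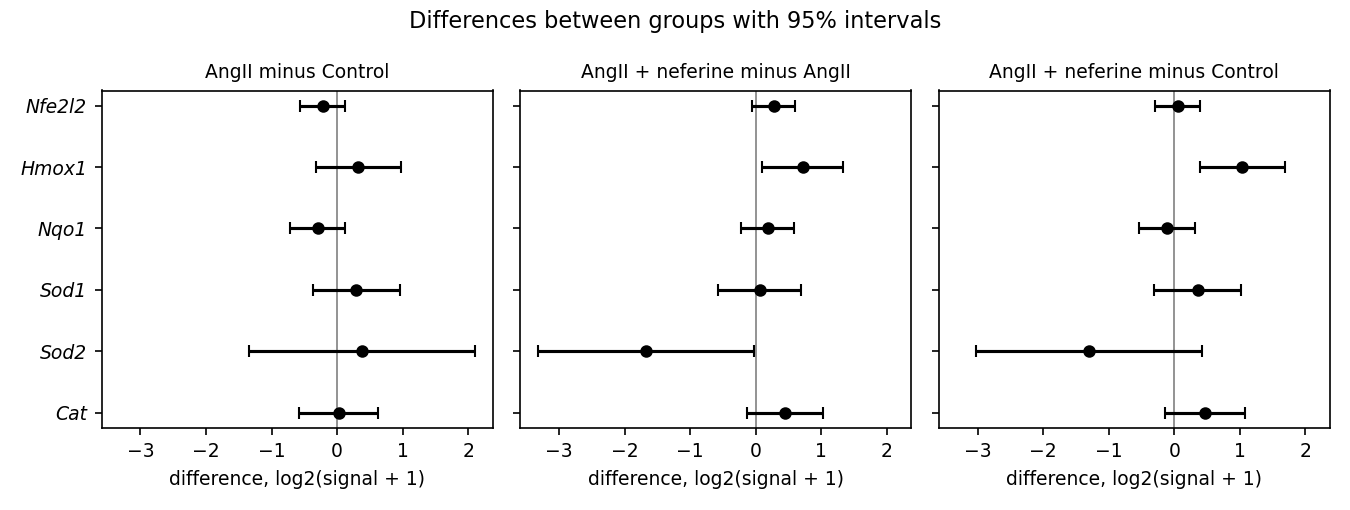
Differences between groups for each transcript on the log2(signal + 1) scale (horizontal axes), 1 panel per comparison. Points are limma estimates from all 17 libraries and bars are 95% intervals that are not adjusted for the number of transcripts. The bars of Hmox1 lie above 0 in both comparisons that involve neferine, and that of Sod2 lies below 0 against AngII.

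Sod1 encodes the copper and zinc superoxide dismutase, found mostly in the cytosol. Its Control signal was 194.8, 151.4, 226.3, 146.6 and 137.3 in replicates 1, 2, 4, 5 and 6. In AngII it ran from 144.1 through a median of 167.4 to 407.1, and with neferine from 137.2 through 200.8 to 461.8. The 3 highest values of all were those of neferine replicate 1, AngII replicate 6 and AngII replicate 2, the libraries that stood apart, and 14 others lay between 137.2 and 226.3. Means were 171.3 ± 37.9 (SD, n = 5), 225.5 ± 111.0 (SD, n = 6) and 232.7 ± 115.1 (SD, n = 6) in Control, AngII and with neferine. AngII differed from Control by 0.29 ± 0.31 (SE) on the log2 scale (limma, adjusted p = 0.841, 95% interval from -0.37 to 0.96). This difference was 0.18 with each library scaled to an equal total and 0.34 with scaling by the median of ratios. Without the 3 libraries the sign turned, to -0.11, and the AngII mean was 156.4 ± 13.9 (SD, n = 4). Neferine differed from AngII by 0.06 ± 0.30 (SE; limma, adjusted p = 0.995), from -0.57 to 0.70, and from Control by 0.36 ± 0.31 (SE; limma, adjusted p = 0.796), from -0.31 to 1.02. Without neferine replicate 1 alone these became -0.16 from AngII and 0.14 from Control.

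Sod2 encodes the manganese superoxide dismutase of mitochondria, and its transcript varied most. The Control values were 3.94, 14.9, 4.17, 2.01 and 1.78 in replicates 1, 2, 4, 5 and 6. In AngII they ran from 0.319 through a median of 6.71 to 54.5, and with neferine from 0.0779 through 0.808 to 4.34. Neferine libraries took the lower part of the range, with 4 of 6 below every Control library, but all groups overlapped. The highest of the 17 values was AngII replicate 2, and the lowest were neferine replicates 6 and 2, at 0.0779 and 0.116. Over all 17 libraries the highest value was 699 times the lowest. The lowest value is under the signal of 1 used in the filter, so this ratio rests on a value near 0. Means were 5.36 ± 5.45 (SD, n = 5), 13.7 ± 20.7 (SD, n = 6) and 1.504 ± 1.74 (SD, n = 6) in Control, AngII and with neferine.

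For Sod2 the log2 difference of neferine from AngII was -1.68 ± 0.78 (SE), with a 95% interval from -3.32 to -0.03 (limma, adjusted p = 0.952). An exact permutation test gave an unadjusted p of 0.0996. The difference was -0.58 without the 3 libraries that stood apart. Neferine differed from Control by -1.30 ± 0.82 (SE; limma, adjusted p = 0.691, 95% interval from -3.03 to 0.43). The size depended on the pseudocount: at 0.1 and at 5 in place of 1 the difference was -2.26 and -0.59 from Control and -2.45 and -0.99 from AngII. AngII differed from Control by 0.38 ± 0.82 (SE; limma, adjusted p = 0.928), with an interval from -1.35 to 2.10 that holds large changes either way, and the sign turned to -0.24 without AngII replicate 2. These values belong to 1 Sod2 transcript, and how reads were shared among transcripts of a gene is not stated.

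Cat encodes catalase, the peroxisomal enzyme that removes hydrogen peroxide. In Control its signal was 59.6, 51.5, 58.4, 53.1 and 53.1 in replicates 1, 2, 4, 5 and 6, the narrowest Control range of the 6 transcripts relative to its mean, with a coefficient of variation of 6.56%. In AngII it ran from 39.0 through a median of 49.2 to 127.9, and with neferine from 47.2 through 77.6 to 139.5. In AngII 4 of 6 libraries were below every Control library and 1, replicate 2, was above. With neferine 4 of 6 were above every Control library and 1 was below, so all 3 groups overlapped.

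The Cat mean of Control was 55.2 ± 3.62 (SD, n = 5), that of AngII 61.1 ± 33.2 (SD, n = 6) and that of neferine 81.3 ± 32.9 (SD, n = 6). Neferine differed from Control by 0.46 ± 0.29 (SE) on the log2 scale (limma, adjusted p = 0.684, 95% interval from -0.14 to 1.07) and from AngII by 0.44 ± 0.27 (SE; limma, adjusted p = 0.952, 95% interval from -0.14 to 1.02). The difference from Control was 0.29 without neferine replicate 1. Against AngII it was 0.27 without neferine replicate 1, 0.68 without AngII replicate 2 (limma, adjusted p = 0.558) and 0.44 without all 3 libraries that stood apart. AngII differed from Control by 0.02 ± 0.29 (SE; limma, adjusted p = 0.99, 95% interval from -0.59 to 0.63), and by -0.21 without AngII replicate 2.

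As a list, the members had differences of both signs in each comparison. Between AngII and Control 4 of 6 had a higher mean log2 signal and 2 a lower one, with a median difference of 0.16. Of all transcripts tested 47.5% were higher and their median was -0.03. This count depended on the 3 libraries that stood apart, without which only Hmox1 was higher in AngII, by 0.44. The differences were then -0.06 for Nfe2l2, -0.24 for Nqo1, -0.11 for Sod1, -0.61 for Sod2 and -0.14 for Cat. In both comparisons with neferine every member kept its sign without these libraries. Between neferine and AngII 5 were higher and 1 lower, with a median of 0.23 against 49.5% higher and a median of -0.0042 over all transcripts. Between neferine and Control 4 were higher and 2 lower, with a median of 0.21 against 47.1% and -0.03. The comparisons share libraries, so these counts are not independent of each other. The unadjusted limma p was under 0.05 in 7.25%, 5.22% and 8.74% of all transcripts in the 3 comparisons, beside the 0, 2 and 1 members given above. The 2 between neferine and AngII were Hmox1, higher, and Sod2, lower, and the 1 between neferine and Control was Hmox1.

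**Figure D3:**
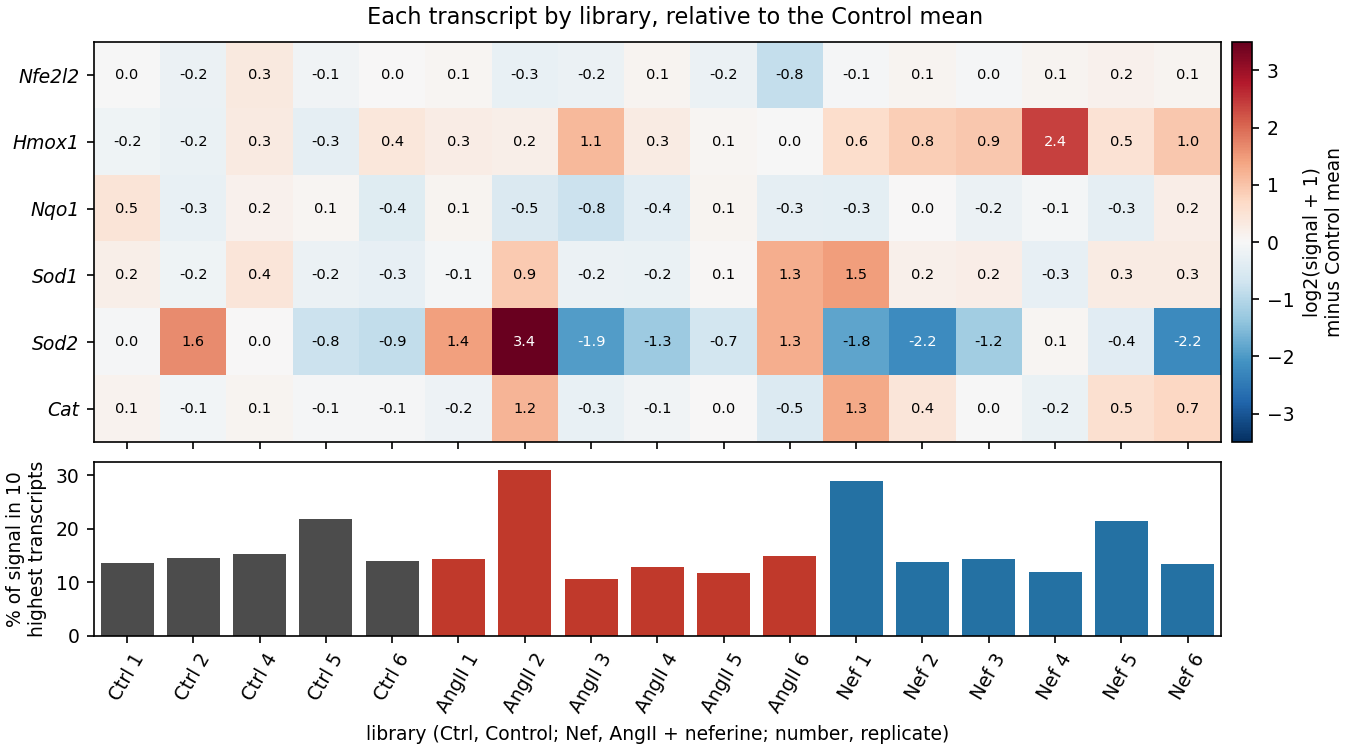
Upper panel: log2(signal + 1) of each transcript in each library minus the Control mean (colour and printed value). Lower panel: the percent of a library's signal in its 10 highest transcripts. Sod1 and Cat are high together in AngII 2 and Nef 1, the libraries with 31.0% and 29.0%, and in AngII 6 Sod1 and Sod2 are above the Control mean while Nfe2l2 and Cat are below it.

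The members differed widely in how much they varied between samples of 1 group. The SD within groups on the log2 scale was 0.23 for Nfe2l2, 0.30 for Nqo1, 0.49 for Cat, 0.52 for Hmox1, 0.54 for Sod1 and 1.44 for Sod2, beside a median of 0.60 over all transcripts tested. Among those transcripts Nfe2l2 lay at the 4.96th percentile of this SD and Sod2 at the 94.8th. Precision therefore differed by transcript. The 95% interval of the difference between AngII and Control spanned -0.56 to 0.12 for Nfe2l2 and -1.35 to 2.10 for Sod2.

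Single libraries lay far from their groups. In AngII replicate 2 the signals of Sod1, Sod2 and Cat were 320.4, 54.5 and 127.9, the last 2 of them the highest of the AngII group. Neferine replicate 1 had the highest Sod1, 461.8, and the highest Cat, 139.5, of all libraries, but a Sod2 of 0.416. AngII replicate 6 combined a Sod1 of 407.1 with the lowest Cat, 39.0, and the lowest Nfe2l2, 21.4, of all libraries. Hmox1 was within the range of the other AngII libraries in replicate 2, at 7.92, and was the lowest of its group in replicate 6. The high Hmox1 of neferine replicate 4 came without a high Sod1 or Cat, which at 137.2 and 47.2 were the lowest of the neferine group. The part of the composition of these libraries in the member values was not tested.

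Sod1 and Cat were the pair of members with the highest correlation across libraries. Pearson's r of the log2 values was 0.57 and Spearman's rho 0.58 over 17 libraries, given as a description. Without the libraries farthest from the median Sod1, AngII replicate 6 and neferine replicate 1, r was 0.86 and rho 0.82 (n = 15), and without all 3 libraries that stood apart r was 0.71 and rho 0.78 (n = 14). With the group means removed, r over the 17 libraries was 0.56. Both transcripts come from the same libraries and share their scaling. Nfe2l2 and its target Hmox1 had an r of 0.31 and a rho of 0.42 over 17 libraries, and Nfe2l2 and Nqo1 an r of 0.35 and a rho of 0.37. With the group means removed, r was 0.25 for Nfe2l2 with Hmox1 and 0.22 for Nfe2l2 with Nqo1. Without the 3 libraries that stood apart (n = 14), r was 0.23 and 0.28, and rho 0.31 and 0.17, in the same order. The 2 targets, Hmox1 and Nqo1, had an r of -0.16 and a rho of -0.18. With members other than these targets, Nfe2l2 had an r of -0.42 (Sod1), -0.37 (Sod2) and 0.22 (Cat) over 17 libraries. Its r with Sod1 turned to 0.49 without the 3 libraries that stood apart.

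**Figure D4:**
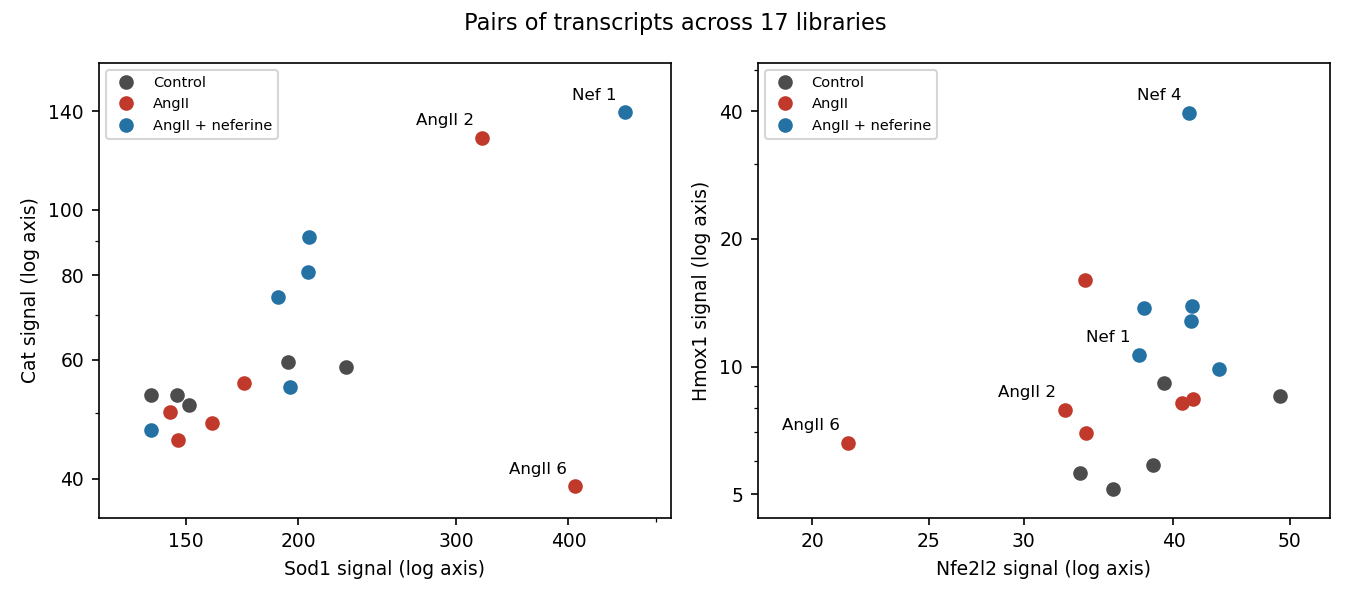
Signals of Cat against Sod1 (left) and of Hmox1 against Nfe2l2 (right), all axes log, with 1 point per library (17 in all). Labels mark the 3 libraries that stood apart and neferine replicate 4. Cat and Sod1 have an r of 0.57 on the log2 scale, with AngII 6 far from the others, and Hmox1 and Nfe2l2 an r of 0.31.

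Across all transcripts tested, the pattern most like that of Hmox1 over the 17 libraries was that of MERGE.21747.1, which is not an Ensembl identifier. The Pearson r of the 2 was 0.92 and the Spearman rho 0.86 on the log2 values. Hmox1 and Sod2 were followed here because their SD over all 17 libraries, groups not separated, was the highest of the members, at 0.66 and 1.55 on the log2 scale. The pattern most like that of Sod2 was that of ENSMUST00000060175, with an r of 0.82 and a rho of 0.82. These are the highest of 29977 correlations each, and the tables do not name the genes of these transcripts.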

How the data were processed

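Per the labels' protocols, Trizol-extracted RNA was depleted of ribosomal RNA and made into Illumina libraries. The deposited files give 1 abundance signal per transcript and library. Per the file headers no unit is named. Limma stands in the submitters' processing notes with no role. The sources used here do not give the aligner, quantifier, build or annotation. The Control and AngII files list 43752 transcripts and the neferine files 41642, and the 39614 in all files were used. Any pair of libraries had equal values above 0 in at most 0.414% of transcripts.

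The 29983 transcripts that reached a signal of 1 in 5 or more libraries were tested as log2(signal + 1), which understates changes of low transcripts, with limma 3.58.1 in R 4.3.3. All 17 libraries entered 1 fit with a term per group, trended and robust moderation and no covariate. Simulated data, a single draw of independent normal values per comparison, had 29983 transcripts, with 50 changed at each size. Of log2 changes of 0.5, 2% were recovered for AngII against Control, 0% for neferine against AngII and 0% for neferine against Control. Of changes of 1 it was 14%, 16% and 26% in the same order. Of changes of 2 it was 68%, 72% and 58%, and false calls were 8, 5 and 6. With 50 transcripts per size, these shares do not rank the comparisons, and no outlying library was simulated. Alternatives varied the pseudocount, filter, scaling, groups fitted, moderation, weights, test, replicate block and libraries.

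The members and lists were chosen with earlier results of these data known. All 6 members are named, and so are the transcripts most alike to the 2 members with the largest SD of log2(signal + 1) over all 17 libraries. The planned list of other pathway genes, the promoter motif and the cell type markers were not analysed here, because 0 identifiers matched the RefSeq table of gene names.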

Additional observations from a re-analysis of the deposited data

Results flagged for a closer look

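Each group of 5 or 6 values was examined for 1 library far from the rest, by its gap to the nearest value as a share of the group's range. Of 18 groups of member values 6 had such a library, and of 27 groups in all, library measures included, 10 did. For normally distributed values about 1 group in 20 is expected. The signals are skewed, so the rate that holds here was not measured, and several of the groups concern the same libraries.

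Hmox1 was far above its group in AngII replicate 3, at 16.0, and in neferine replicate 4, at 39.7. Sod1 was far above its group in neferine replicate 1, at 461.8. Sod2 was far above its group in Control replicate 2, at 14.9, and in AngII replicate 2, at 54.5. Cat was far above its group in AngII replicate 2, at 127.9.

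Among library measures, AngII replicate 6 had 16.4% of transcripts at 0 and a median rho of 0.455, and the 10 highest transcripts took 31.0% of the signal in AngII replicate 2 and 21.8% in Control replicate 5.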

How the results depend on the processing

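No member was called under any setting in any comparison, over 543 values of 18 member differences, and 12 of the 18 kept their sign throughout. Sod2 could not be tested at a minimum of 5 in 5 libraries. The adjusted p of Hmox1 between neferine and Control lay between 0.174 (library weights) and 0.488, and its log2 difference between 0.77 and 1.15. The sign of the difference between AngII and Control turned for Cat with equal totals (-0.087), library weights (-0.031) and without the 3 libraries that stood apart (-0.14), and ranged from -0.21 to 0.13 when single libraries were left out. For Sod2 it turned with library weights (-0.35) and without the 3 libraries (-0.61), with -0.24 to 0.84 for single libraries, and for Sod1 without the 3 libraries (-0.11). Between neferine and AngII the Sod1 difference was -0.16 to 0.26 without single libraries. Between neferine and Control, Nfe2l2 turned to -0.031 with equal totals, and Nqo1 lay between -0.22 and 0.00058 without single libraries. The cause was not tested.

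Whether the replicate numbers pair libraries could not be decided, because few pairs of any kind correlated. Deviations from the group means correlated over 0.1 in 0 of 16 same-numbered pairs and in 4 of 80 other pairs. Of 17 libraries 1 correlated best with its own number. With the replicate block the Hmox1 difference between neferine and Control was 0.97 (limma, adjusted p = 0.401), no member was called, and 0 of all transcripts were called in that comparison against 11 without it. Calls over all transcripts ranged from 0 to 12 (AngII against Control, 0 in the report), from 0 to 13 (neferine against AngII, 0) and from 0 to 110 (neferine against Control, 11), the last without the 3 libraries together. Depth is unknown and sets no stated limit.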
